A study of Mus musculus with 6 samples.

Results

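The unfolded protein response (UPR) of the secretory pathway was read here through 10 genes of ER stress sensing and protein folding: *Ern1*, *Xbp1*, *Atf6*, *Hspa5*, *Dnajb9*, *Sdf2l1*, *Hsp90b1*, *Calr*, *Pdia4* and *Herpud1*. They were chosen by name as stress sensors and chaperones of the endoplasmic reticulum (ER). All 10 were found among the 16381 genes listed, and all 10 passed the filter on low values. The cells were activated group 2 innate lymphoid cells (aILC2s), sorted from the lungs of wild type BALB/cJ mice that had received intranasal IL-33 at 0.5 µg per day for 3 days. According to the methods of the study, the mice were female and aged 6 to 8 weeks. In both groups the sorted cells were cultured for 24 h, in the melatonin group with 250 µM melatonin and in the vehicle group with its solvent DMSO. Each group held 3 samples, which the labels number without saying whether they came from separate mice or pools, so p-values measure only the spread between these samples. The comparison asks how a day of melatonin changed the transcriptome of ILC2s that were already activated.

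The UPR is the set of signals by which a cell fits the folding capacity of its ER to the load of new secreted and membrane proteins. Unfolded proteins draw the chaperone BiP, the product of *Hspa5*, away from the sensors IRE1 (*Ern1*), ATF6 (*Atf6*) and PERK (*Eif2ak3*). IRE1 then cuts a short intron out of *Xbp1* mRNA so that an active transcription factor is made, ATF6 is cleaved in the Golgi to release another, and PERK slows translation and favours ATF4. XBP1 and ATF6 raise chaperones, folding enzymes and the machinery of ER-associated degradation (ERAD), which returns misfolded proteins to the cytosol for the proteasome. Activated ILC2s secrete large amounts of cytokine, and all of it is folded in the ER.

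Values are normalised counts, that is, the authors' estimated counts per gene divided by a size factor per sample, with between 17056233 and 20511662 estimated counts behind each sample. Tests used limma on the log2 of the normalised count plus 1, and a gene was called at an adjusted p-value under 0.05. The 15 genes taken as ILC2 markers were all detected in every sample, and their summed level was 227633 to 242708 in vehicle and 154199 to 174017 in melatonin. Of these, 9 were called lower, *Thy1* (−2.88), *Klrg1* (−2.16), *Il7r* (−1.06) and *Id2* (−0.85) among them, 2 were called higher, *Il1rl1* (0.63) and *Rora* (0.64), and *Gata3* was not called (0.07), with a median log2 fold change of −0.77. Y-linked transcripts such as *Ddx3y* were present in the 3 vehicle samples and melatonin replicate 1 and at 0 in melatonin replicates 2 and 3, where *Xist* stood at 579 and 1091 normalised counts. The 4 libraries with Y-linked transcripts thus do not match the female mice of the methods. Any fit without melatonin replicate 1 compares melatonin samples that lack these transcripts with vehicle samples that hold them. By their labels, libraries 20 to 22 were melatonin and libraries 32 to 34 vehicle, so that batch and treatment cannot be told apart if libraries were made in that order. The labels of all vehicle libraries also end in v1, which those of the melatonin libraries do not, and its meaning is not given.

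Melatonin-treated aILC2s held more mRNA of *Hspa5*, *Dnajb9*, *Ern1* and *Pdia4* than vehicle-treated aILC2s, with fold changes between 1.24 and 1.74. None of the 10 genes was called lower. *Xbp1*, *Sdf2l1*, *Herpud1*, *Atf6*, *Hsp90b1* and *Calr* did not pass the test, and the last 3 had negative estimates. Across all 14419 genes tested, limma called 24.5% higher and 24.7% lower, against 4 and 0 of these 10. All 10 had a mean of at least 100 normalised counts. In a fit of the 9990 such genes, limma called 3137 higher and 2667 lower. The median log2 fold change of the 10 genes was 0.11, beside −0.00 over all genes tested and 0.05 over those 9990. For 5 of the 10 genes the groups did not overlap with melatonin above, beside 30.0% of all genes, and for 1, *Calr*, with melatonin below, beside 30.3%. The plot of the 10 genes by sample shows these groups side by side.

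**Figure D1:**
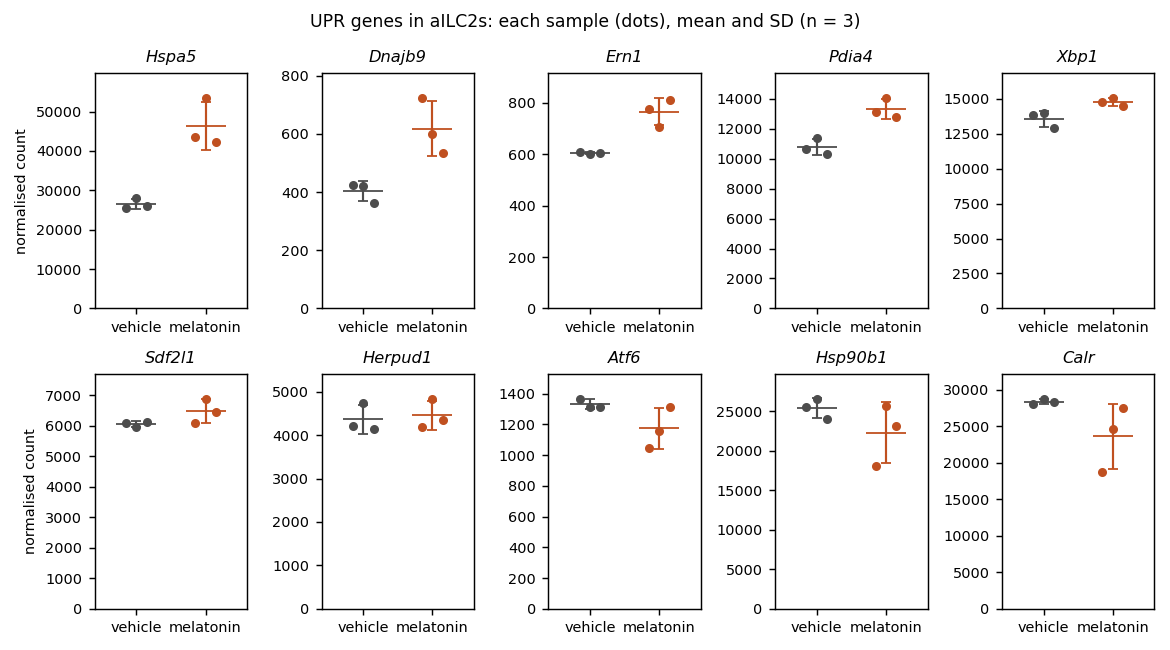
Normalised counts (y axis, from 0) of the 10 UPR genes in the 3 vehicle and 3 melatonin samples, as dots, with the mean and SD (n = 3) as bars. *Hspa5*, *Dnajb9*, *Ern1*, *Pdia4* and *Xbp1* do not overlap between the groups, with melatonin above, and *Calr* does not overlap with melatonin below; the melatonin dots of *Calr* and *Hsp90b1* are spread widely, from 18765 to 27418 and from 18076 to 25722.

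Promoters of several of these genes carry the ER stress response element (ERSE), through which ATF6 and XBP1 act together with NF-Y. The RefSeq promoter table (GRCm38.p6, 250 bases before to 50 after the transcript start) held 9 of the 10 genes and had no entry for *Atf6*. On either strand, the ERSE was searched as CCAAT and CCACG with any 9 bases between them, the related ERSE-II as ATTGG and CCACG with 1 base between them, and the core of the UPR element (UPRE), a site of XBP1, as TGACGTG followed by G or T. Of all 32851 promoters, 39 (0.119%) held an ERSE, 12 (0.0365%) an ERSE-II and 374 (1.14%) a UPRE core. *Hspa5* held an ERSE from −65 to −47, *Calr* a reversed one from −162 to −144, and *Hsp90b1* a forward one from −212 to −194 and a reversed one from −107 to −89. *Herpud1* held an ERSE-II from −52 to −42, and its letters overlap no other match. In *Xbp1*, *Ern1*, *Dnajb9*, *Sdf2l1* and *Pdia4* these letters did not occur in the window. The 4 promoters with a match are shown because the estimates of their genes differ in sign, each from 225 bases before to 25 after the start, 5′ to 3′ on the strand of the gene. Capitals mark the outer letters of each match. On GRCm38.p6 the stretches are chr2:34771865-34772114 on the plus strand for *Hspa5*, chr8:84846907-84847156 on the minus strand for *Calr*, chr10:86705420-86705669 on the minus strand for *Hsp90b1* and chr8:94386204-94386453 on the plus strand for *Herpud1*.
Hspa5: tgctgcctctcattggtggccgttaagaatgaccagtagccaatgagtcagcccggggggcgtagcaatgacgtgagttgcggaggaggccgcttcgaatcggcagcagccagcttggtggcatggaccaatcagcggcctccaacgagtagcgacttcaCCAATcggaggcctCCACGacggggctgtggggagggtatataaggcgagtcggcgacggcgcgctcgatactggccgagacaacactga
Calr: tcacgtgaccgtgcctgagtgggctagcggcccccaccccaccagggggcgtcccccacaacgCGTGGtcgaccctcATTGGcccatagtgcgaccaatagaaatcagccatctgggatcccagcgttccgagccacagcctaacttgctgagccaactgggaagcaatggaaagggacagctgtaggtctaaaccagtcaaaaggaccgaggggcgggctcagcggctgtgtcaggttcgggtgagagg
Hsp90b1: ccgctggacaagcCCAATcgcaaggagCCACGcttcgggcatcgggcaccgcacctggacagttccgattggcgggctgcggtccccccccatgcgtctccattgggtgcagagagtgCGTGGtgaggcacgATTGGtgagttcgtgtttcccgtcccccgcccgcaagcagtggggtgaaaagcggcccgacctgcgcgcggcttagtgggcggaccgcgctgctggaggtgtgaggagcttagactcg
Herpud1: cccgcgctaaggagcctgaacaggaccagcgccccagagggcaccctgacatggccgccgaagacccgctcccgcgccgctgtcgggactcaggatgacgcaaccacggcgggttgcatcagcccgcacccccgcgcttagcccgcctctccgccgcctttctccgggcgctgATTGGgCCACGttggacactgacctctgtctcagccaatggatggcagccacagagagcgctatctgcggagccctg

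The 3 genes of the panel with an ERSE had log2 fold changes of 0.80 (*Hspa5*), −0.20 (*Hsp90b1*) and −0.28 (*Calr*), of which the first was called. Among all genes, 17 of the 37 with an ERSE promoter were tested, and 6 were higher, 3 were lower and the median was 0.03. Of 9 tested genes with an ERSE-II, 1 was higher and 3 were lower (median −0.17), and of 166 with a UPRE core, 47 were higher and 37 lower (median 0.06), where limma called 24.5% of all genes higher and 24.7% lower. Within the secretory pathway, *Syvn1* (0.60), *Ero1b* (0.65) and *Dnajc3* (0.33) had an ERSE and were higher with melatonin, while *Canx* (−0.44) and *Creld2* (−0.43) had an ERSE and were lower. *Pdia6* (−0.08) and *Derl3* (0.01, at a mean of 23.8 normalised counts) had an ERSE too and were not called. *Dnajb9*, *Ern1* and *Pdia4* were called higher without a match in the window. A match of letters is a description of the promoter and does not show that a factor was bound there.

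**Figure D2:**
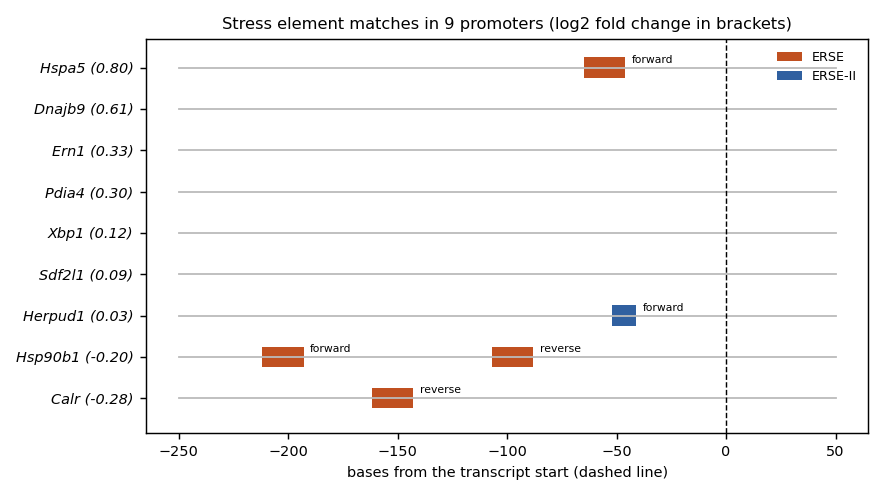
Position of ERSE and ERSE-II matches in the RefSeq promoters of 9 UPR genes, in bases from the transcript start (x axis, dashed line at the start), with the log2 fold change of each gene in brackets. The genes are ordered by log2 fold change, and matches lie in *Hspa5* at the top (0.80) and in *Herpud1* (0.03), *Hsp90b1* (−0.20) and *Calr* (−0.28) at the bottom.

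*Ern1* encodes IRE1α, the kinase and endonuclease that opens the most conserved arm of the response. It lies on chromosome 11 of GRCm39 from 106283818 to 106378686. It stood at 610, 601 and 605 normalised counts in vehicle replicates 1, 2 and 3 and at 776, 707 and 809 in melatonin. The vehicle samples were nearly alike and every melatonin sample was above them. The mean rose from 605 ± 4.46 (SD, n = 3) to 764 ± 52.2, a log2 fold change of 0.33 (SE 0.09, limma adjusted p = 0.016). *Ern1* lost its call without vehicle replicate 2, where the estimate was again 0.33 and limma's adjusted p was 0.0575.

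*Xbp1*, the substrate of IRE1 and the transcription factor made from it, lies on chromosome 11 from 5470606 to 5483027. Its level was 13810, 13979 and 12879 normalised counts in vehicle and 14731, 15017 and 14467 in melatonin. Each melatonin value was above each vehicle value, but by little. With a log2 fold change of 0.12 (95% interval −0.04 to 0.29, limma adjusted p = 0.19), *Xbp1* was not called. Quantile normalisation alone among the alternatives brought a call, at 0.24 (limma adjusted p = 0.0198). The libraries keep no strand, and *Ccdc117*, which overlaps *Xbp1* on the other strand, went from 915 to 1360 normalised counts (log2 fold change 0.57), so the reads of these 2 genes may be shared. The splice by IRE1 removes 26 bases, here chr11:5474278-5474303 of GRCm39. In the sequence below, read on the gene's strand with 20 bases of exon on each side, the capitals mark the intron as annotated.
Xbp1: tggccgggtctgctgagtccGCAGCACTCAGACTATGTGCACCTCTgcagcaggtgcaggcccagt
Of 24 *Xbp1* transcripts in the annotation, 1 has this intron removed and 19 keep it. Counts per gene add both forms, and the share of spliced *Xbp1* was not measured here. Of the transcripts known from other cells to be cut by IRE1 itself, 4 were tested. *Bloc1s1*, the best known of them, had 652 ± 21.9 normalised counts in vehicle and 699 ± 37.9 in melatonin (log2 fold change 0.10, limma adjusted p = 0.39). It has a short transcript, and with the correction for transcript length it was called higher at 0.52 (limma adjusted p = 0.00729). *Hgsnat* was the 1 of the 4 called higher, at 1.28, where 24.5% of all genes were called higher. *Pdgfrb* (−0.31, and 0.14 without melatonin replicate 1) and *Sparc* (−1.70, at fewer than 20 normalised counts in every sample) were not called, and the median of the 4 was −0.11, which turned to 0.10 without melatonin replicate 1. *Sparc* ran from −2.50 without melatonin replicate 2 to −0.79 without vehicle replicate 3.

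*Atf6* encodes the sensor that is itself the precursor of a transcription factor, and lies on chromosome 1 from 170532026 to 170696208. Vehicle values were 1366, 1315 and 1310, and melatonin values were 1048, 1157 and 1314 normalised counts. Melatonin replicate 3 reached the vehicle samples and the other two were below them. The log2 fold change was −0.19 (95% interval −0.41 to 0.03, limma adjusted p = 0.14). Without melatonin replicate 3, *Atf6* was called lower at −0.27 (limma adjusted p = 0.0355), and without melatonin replicate 1 it stood at −0.11 (limma adjusted p = 0.29).

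*Hspa5* encodes BiP, the HSP70 chaperone of the ER lumen and the usual mark of ER stress. It lies on chromosome 2 of GRCm39 from 34661982 to 34668880. Vehicle samples held 25603, 28003 and 26146 normalised counts, and melatonin samples held 43473, 53343 and 42384. The lowest melatonin sample was far above the highest vehicle sample. The mean rose from 26584 ± 1259 (SD, n = 3) to 46400 ± 6037, 1.74-fold, with a log2 fold change of 0.80 (SE 0.11, 95% interval 0.56 to 1.04, limma adjusted p = 0.00049). This was the highest estimate of the 10 genes, and it stayed between 0.69 and 0.86 with each sample left out in turn. *Rabepk*, which overlaps *Hspa5* on the other strand, went the other way, from 779 to 638. *Hspa5* took 0.135%, 0.146% and 0.139% of the total in the vehicle samples and 0.233%, 0.286% and 0.231% in the melatonin samples. Together the 10 genes took between 0.605% and 0.634% in vehicle and between 0.649% and 0.788% in melatonin. With *Hspa5* left out, the share of the other genes overlapped between the groups.

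*Dnajb9*, also called ERdj4, encodes a J-domain partner of BiP that is induced through XBP1 and helps BiP to hold IRE1 inactive. It lies on chromosome 12 from 44252341 to 44257171. Its values were 425, 421 and 363 normalised counts in vehicle and 722, 600 and 534 in melatonin. All melatonin samples were above all vehicle samples, and melatonin replicate 1 was the highest. *Dnajb9* rose from 403 ± 34.5 (SD, n = 3) to 618 ± 95.4, 1.53-fold, a log2 fold change of 0.61 (SE 0.13, limma adjusted p = 0.0056). It kept its call in each of the 6 fits without a sample, between 0.49 and 0.71.

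*Sdf2l1* encodes an ER protein that works with DNAJ partners to keep BiP clients soluble, and lies on chromosome 16 from 16948002 to 16950252. It held 6111, 5963 and 6125 normalised counts in vehicle and 6113, 6893 and 6453 in melatonin. The groups met at melatonin replicate 1, which equalled the vehicle samples. The log2 fold change was 0.09 (95% interval −0.07 to 0.26, limma adjusted p = 0.31). *Sdf2l1* has a short transcript, and with a correction for transcript length it was called at 0.31 (limma adjusted p = 0.00788), with quantile normalisation at 0.23 (limma adjusted p = 0.0334). The estimate was 0.05 without melatonin replicate 2 or with upper quartile scaling, and 0.01 with the libraries holding Y-linked transcripts alone.

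*Hsp90b1* encodes GRP94, the HSP90 of the ER, which folds integrins and Toll-like receptors, and lies on chromosome 10 from 86526073 to 86541446. Vehicle samples held 25610, 26601 and 24060 normalised counts, melatonin samples 18076, 25722 and 23087. Melatonin replicate 1 was well below the rest, and melatonin replicate 2 lay within the vehicle range. No call was made, with a log2 fold change of −0.20 (95% interval −0.49 to 0.08, limma adjusted p = 0.21). The estimate was −0.06 without melatonin replicate 1 and −0.31 without melatonin replicate 2, and not called in either fit.

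*Calr* encodes calreticulin, a lectin chaperone and calcium-binding protein of the ER lumen, and lies on chromosome 8 from 85567946 to 85573667. It stood at 28066, 28737 and 28238 normalised counts in vehicle and at 18765, 24549 and 27418 in melatonin. Every melatonin value was below every vehicle value, replicate 1 by far and replicate 3 by little. The mean was 28347 ± 348 (SD, n = 3) in vehicle and 23577 ± 4408 in melatonin, and the log2 fold change of −0.28 (95% interval −0.58 to 0.01, limma adjusted p = 0.10) was not called. Without melatonin replicate 3, *Calr* was called lower at −0.40 (limma adjusted p = 0.0259), and without melatonin replicate 1 it stood at −0.13 (limma adjusted p = 0.13). With melatonin replicate 1 as the sole melatonin sample, which leaves no measure of the melatonin spread, the estimates of *Calr*, *Hsp90b1* and *Atf6* were −0.60, −0.49 and −0.34.

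*Pdia4*, also called ERp72, encodes a protein disulfide isomerase and lies on chromosome 6 from 47770077 to 47790462. Its level was 10619, 11381 and 10295 normalised counts in vehicle and 13118, 14012 and 12757 in melatonin. The groups did not overlap and were spread alike. *Pdia4* rose from 10765 ± 558 (SD, n = 3) to 13296 ± 646, 1.24-fold, a log2 fold change of 0.30 (SE 0.08, limma adjusted p = 0.011). The call was lost with a correction for transcript length, at 0.17 (limma adjusted p = 0.0794), without vehicle replicate 1, at 0.30 (limma adjusted p = 0.0528), and without vehicle replicate 3, at 0.27 (limma adjusted p = 0.0565).

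*Herpud1* encodes a ubiquitin-like membrane protein that assembles the ERAD ligase around HRD1, and lies on chromosome 8 from 95113022 to 95123141. Its values were 4203, 4749 and 4147 normalised counts in vehicle and 4189, 4838 and 4345 in melatonin. The groups overlapped fully. The log2 fold change was 0.03 (95% interval −0.17 to 0.23, limma adjusted p = 0.80), and its sign turned under 5 of the 20 alternatives.

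**Figure D3:**
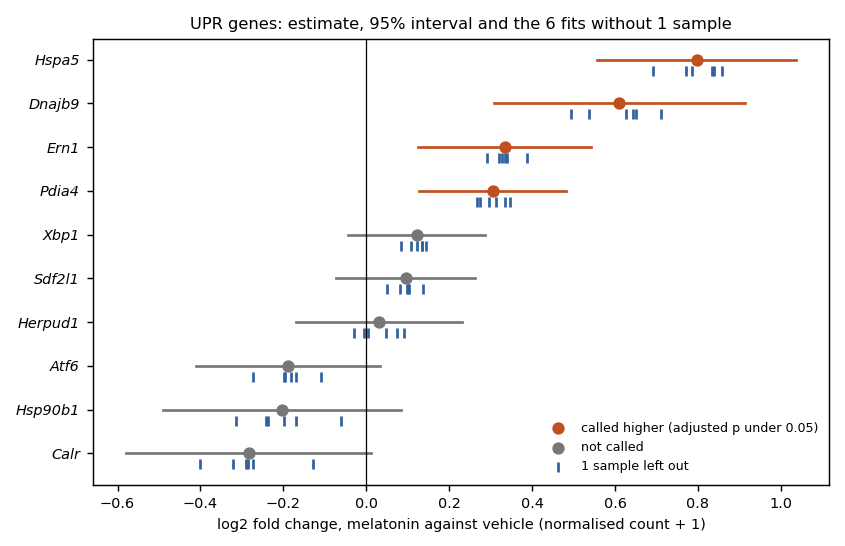
Log2 fold change of each UPR gene, melatonin against vehicle, as a dot with its 95% interval from limma, in orange where called higher, and the 6 estimates with 1 sample left out as ticks below. *Hspa5*, *Dnajb9*, *Ern1* and *Pdia4* lie to the right of 0 with their whole intervals, and the ticks of *Calr* run from −0.40 to −0.13.

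The coefficient of variation (the SD over the mean) was higher in melatonin than in vehicle for 7 of the 10 genes, nearly the same in both for *Pdia4* and *Herpud1*, and lower in melatonin for *Xbp1*. It ran from 0.738% to 8.57% in vehicle and from 1.87% to 18.7% in melatonin, where *Calr* (18.7%), *Hsp90b1* (17.4%) and *Dnajb9* (15.4%) varied most. The wider spread in melatonin was not particular to the panel. The median absolute log2 deviation of genes at large was 0.081, 0.076 and 0.087 in vehicle replicates 1, 2 and 3. It was 0.160, 0.115 and 0.133 in melatonin. For the 10 genes it was 0.023, 0.056 and 0.043 in vehicle and 0.086, 0.083 and 0.075 in melatonin. In melatonin replicate 1, *Dnajb9* was 0.23 above the mean of the melatonin group on the log2 scale, and *Calr* and *Hsp90b1* were 0.31 and 0.29 below it. Melatonin replicates 1, 2 and 3 were above the mean of their group for 2, 7 and 4 of the 10 genes, and vehicle replicates 1, 2 and 3 for 6, 7 and 2. Without melatonin replicate 1, the remaining melatonin samples lack Y-linked transcripts and all vehicle samples hold them. Treatment and this difference cannot be told apart there. In that fit, limma called *Hspa5* (0.84), *Dnajb9* (0.49), *Ern1* (0.32) and *Pdia4* (0.31) higher and none of the 10 lower. With the libraries holding Y-linked transcripts alone, which leave 1 melatonin sample and so no measure of the melatonin spread, the estimates of these 4 genes were 0.71, 0.84, 0.36 and 0.29.

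Per kilobase of transcript, the panel spanned a wide range of levels. In vehicle, *Calr* (12389 mean normalised counts per kilobase) and *Hsp90b1* (8984) led, followed by *Xbp1* (6885), *Sdf2l1* (5450) and *Hspa5* (5367). *Pdia4* (1959) and *Herpud1* (1401) were next, and *Atf6* (176), *Dnajb9* (164) and *Ern1* (86.4) were lowest. In melatonin, *Hspa5* had 9368 per kilobase and stood second to *Calr* (10305), above *Hsp90b1* (7878), *Xbp1* (7485) and *Sdf2l1* (5828). *Dnajb9* (251) stood above *Atf6* (156), which it had not in vehicle.

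Since the estimates for chaperones of the ER lumen differed in sign, ratios were taken within each sample, where scaling between samples cancels. The ratio of *Hspa5* to *Hsp90b1* was 1.00, 1.05 and 1.09 in vehicle and 2.41, 2.07 and 1.84 in melatonin. The ratio of *Hspa5* to *Calr* was 0.912, 0.974 and 0.926 in vehicle and 2.32, 2.17 and 1.55 in melatonin. Both ratios were higher in every melatonin sample than in any vehicle sample; they are of counts that are not per length, and so do not rank the levels of the genes. The ratio of *Hspa5* to *Hyou1*, which encodes the nucleotide exchange factor GRP170 of BiP, was 5.27, 5.53 and 5.27 in vehicle and 14.8, 15.3 and 11.7 in melatonin. That of *Ern1* to *Atf6* was 0.446, 0.457 and 0.462 in vehicle and 0.741, 0.611 and 0.616 in melatonin. *Dnajb9* to *Sdf2l1* had a mean of 0.0664 in vehicle and 0.0959 in melatonin, and *Herpud1* to *Syvn1*, the gene of the HRD1 ligase, 3.17 and 2.15. In each of the 6 ratios the groups did not overlap, but the pairs were chosen with the values of their genes known, so the ratios are given as a description.

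**Figure D4:**
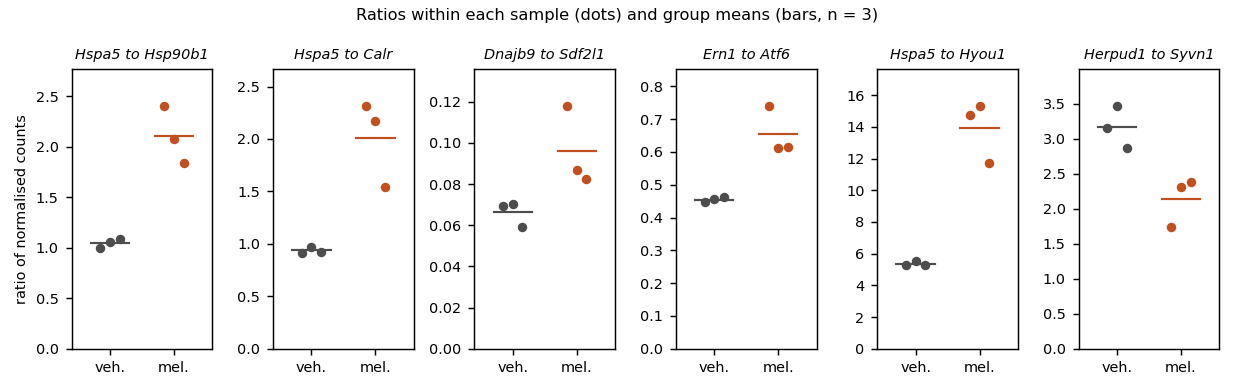
Ratio of the normalised counts of gene pairs (y axis, from 0) within each vehicle (veh.) and melatonin (mel.) sample, as dots, with the group mean as a bar (n = 3). The ratios of *Hspa5* to *Hsp90b1*, *Calr* and *Hyou1* are higher in each melatonin sample, and *Herpud1* to *Syvn1* is the only ratio of the 6 that is lower in melatonin, at 1.75, 2.31 and 2.38.

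Around the panel, 8 lists of secretory pathway genes held 152 tested genes, the 10 included, of which limma called 51 (33.6%) higher and 33 (21.7%) lower, with a median log2 fold change of 0.09. Over all genes tested, 24.5% were higher and 24.7% lower, and the shares of each list below are to be read against these. Of the list genes, 147 had a mean of at least 100 normalised counts. In a fit at that level limma called 3137 of 9990 genes higher and 2667 lower, beside 53 and 34 of the 147. The median log2 fold change there was 0.05 over all genes and 0.10 in the lists. Without the 10 genes, 47 of 142 were higher and 33 lower in the fit of all genes tested. Among the 8 lists the share called higher ran from 0% in the oligosaccharyltransferase to 55.2% in ERAD, and the share called lower from 0% in ERAD to 63.6% in the oligosaccharyltransferase. Differences between lists were not tested. The plot of log2 fold changes by list shows the medians.

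Of 13 sensors and transducers, 6 (46.2%) were higher and 2 (15.4%) lower, with a median of 0.21. *Tmbim6*, an inhibitor of IRE1 and of cell death, rose from 3841 ± 127 (SD, n = 3) to 5180 ± 329 normalised counts (log2 fold change 0.43, limma adjusted p = 0.0021). *Eif2ak3*, the gene of PERK, was called at 0.54 (limma adjusted p = 0.044), although melatonin replicate 3 at 580 lay below vehicle replicate 3 at 592, stood at 0.33 without vehicle replicate 1, and kept its call in 2 of 6 fits without a sample. *Mbtps1* (0.22) and *Mbtps2* (0.41), the proteases that cleave ATF6 in the Golgi, were higher, with the call kept in 2 and 3 of those 6 fits. *Eif2ak3* (0.41), *Mbtps1* (0.07) and *Mbtps2* (0.36) lost their calls with the correction for transcript length. *Creb3l2* (−0.57), an ATF6-like factor, and *Tmem33* (−0.36) were lower, and *Atf6b* was not called (0.00). Without vehicle replicate 2, *Tmem33* lost its call. The list had 1 call higher and 1 lower without vehicle replicate 2, 2 without melatonin replicate 2 and 3 without vehicle replicate 1 or 3.

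Among 24 ER chaperones and co-chaperones, 9 (37.5%) were higher and 7 (29.2%) lower, with a median of 0.09. The median was 0.04 without melatonin replicate 2 or with upper quartile scaling, 0.15 with the correction for transcript length and −0.07 with the libraries holding Y-linked transcripts alone. Partners of BiP were on both sides. *Sdf2*, the paralogue of *Sdf2l1*, rose from 1240 ± 4.18 (SD, n = 3) to 2621 ± 389 normalised counts, a log2 fold change of 1.07 (limma adjusted p = 0.00014). The J-domain co-chaperones *Dnajc10* (0.73), *Dnajc1* (0.65) and *Dnajc3* (0.33) and the exchange factor *Sil1* (0.65) were higher, while *Dnajb11* was not called (0.09). *Hyou1* fell from 4961 ± 104 to 3344 ± 355 (log2 fold change −0.57, limma adjusted p = 0.0011), and *Fkbp2* (−0.46), a prolyl isomerase, *Creld2* (−0.43) and *Manf* (−0.33) were lower. *Dnajc3* kept its call in 3 of the 6 fits without a sample, and so did *Manf*. With the correction for transcript length, *Fkbp2* (−0.09), *Dnajc3* (0.19) and *Hspa13* (0.30 to 0.17) lost their calls and *Sdf2l1* gained one. *Manf* was −0.19 without melatonin replicate 1.

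In the list of the calnexin and calreticulin cycle, which folds glycoproteins, 2 of 10 genes (20%) were higher and 3 (30%) lower. The higher genes include *Mcfd2*, which belongs to a cargo receptor and not to the cycle itself. *Canx*, the membrane-bound relative of *Calr*, fell from 14123 ± 709 (SD, n = 3) to 10420 ± 1192 normalised counts (log2 fold change −0.44, limma adjusted p = 0.0059). The subunits of glucosidase II, *Prkcsh* (−0.43) and *Ganab* (−0.37), were lower too. *Pdia3*, the disulfide isomerase that calreticulin and calnexin recruit, was higher (0.35), as was *Mcfd2* (0.52), a partner of the cargo receptor *Lman1* (0.10, not called). The median of the list was −0.14 and depended on single libraries: it was 0.00 without melatonin replicate 1, −0.04 without vehicle replicate 3 and −0.24 without melatonin replicate 3. It was 0.04 with quantile normalisation, −0.04 with sample weights and −0.32 with the libraries holding Y-linked transcripts alone.

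Of 20 genes of disulfide formation, 10 (50%) were higher and 2 (10%) lower, with a median of 0.26 that was 0.17 with the correction for transcript length. *Tmx2* (0.80) and *Txndc16* (0.78) rose most, and *Ero1b* (0.65) and *Ero1a* (0.31), the oxidases that recharge the isomerases, and *Prdx4* (0.46), the ER peroxiredoxin, were also higher. *P4hb* (−0.09) and *Pdia6* (−0.08), abundant isomerases, were not called, and *Erp29* (−0.44) and *Txndc5* (−0.28) were lower. *Ero1a* kept its call in 2 of 6 fits without a sample and lost it with the length correction (0.17), and the list had 6 calls higher without vehicle replicate 3. *Txndc5* lost its call without vehicle replicate 2.

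In ERAD, 16 of 29 genes (55.2%) were higher and 0 were lower, with a median of 0.24. *Herpud2*, the paralogue of *Herpud1*, rose from 968 ± 98.6 (SD, n = 3) to 1842 ± 196 normalised counts (log2 fold change 0.93, limma adjusted p = 0.00029). The HRD1 ligase *Syvn1* (0.60) and its partner *Sel1l* (0.47) were higher, as were *Derl2* (0.50), *Os9* (0.26), *Faf2* (0.63), the ligase *Rnf139* (0.88) and the glycanase *Ngly1* (0.93). *Edem1* (−0.05), an XBP1 target, *Vcp* (0.19), the ATPase that pulls substrates out, and *Herpud1* were not called. The count of higher genes ran from 13 to 20 over the 6 fits without a sample, and 1 gene was called lower without melatonin replicate 1.

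Of 25 genes of the translocon and signal peptide handling, 8 (32%) were higher and 5 (20%) lower. *Serp1*, which protects newly made proteins at the translocon under stress, rose from 9220 ± 472 (SD, n = 3) to 17751 ± 2493 normalised counts (log2 fold change 0.94, limma adjusted p = 0.00025), and the signal peptidase subunit *Sec11c* rose by a log2 fold change of 0.52. Of the channel, *Sec61g* (−0.93), *Sec61b* (−0.70) and *Sec61a1* (−0.39) were lower and *Sec61a2* (0.36) was higher, the last with its call kept in 0 of the 6 fits without a sample and lost with the length correction (0.24), while *Sec62* (0.39) and *Sec63* (0.49), of the post-translational route, were higher. Higher genes of the translocon list were 5 without vehicle replicate 2 or 3 or melatonin replicate 2. In the oligosaccharyltransferase, which adds N-glycans at the translocon, 0 of 11 genes were higher, 7 (63.6%) lower and 4 not called, with a median of −0.35. *Tmem258* (−0.69), *Krtcap2* (−0.68) and *Ost4* (−0.65) were lower, and the catalytic subunits *Stt3a* (−0.01) and *Stt3b* (0.02) were not called. Lower genes of this list ran from 6 to 7 over the 6 fits without a sample, and 5 were lower with quantile normalisation, where the median was −0.20. With the correction for transcript length, 7 were again lower, but *Ostc* lost its call (−0.27 to −0.04), and *Tmem258* went to −0.29.

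In the list of COPII and KDEL receptor traffic, 1 of 21 genes (4.76%) was higher, 7 (33.3%) lower and 13 not called, with a median of −0.08. The median was −0.12 without melatonin replicate 1 and ran from −0.19 with the length correction to −0.04 with limma's voom on estimated counts. KDEL receptors bring escaped BiP, GRP94 and calreticulin back from the Golgi. *Kdelr2* fell from 2281 ± 115 (SD, n = 3) to 1331 ± 321 normalised counts (log2 fold change −0.80, limma adjusted p = 0.0027), and *Kdelr3* (−0.88) and *Kdelr1* (−0.42) were lower with the call kept in 4 and 3 of the 6 fits without a sample; *Kdelr1* lost it with the length correction (−0.32), and *Kdelr3* was −0.57 without melatonin replicate 1. *Surf4*, a cargo receptor, fell from 25628 ± 1121 to 14972 ± 612 (log2 fold change −0.78, limma adjusted p = 0.00014). *Sec23a* (0.74), of the inner COPII coat, was the gene called higher. The lower genes were 4 without vehicle replicate 1, and 2 genes were higher without melatonin replicate 3.

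**Figure D5:**
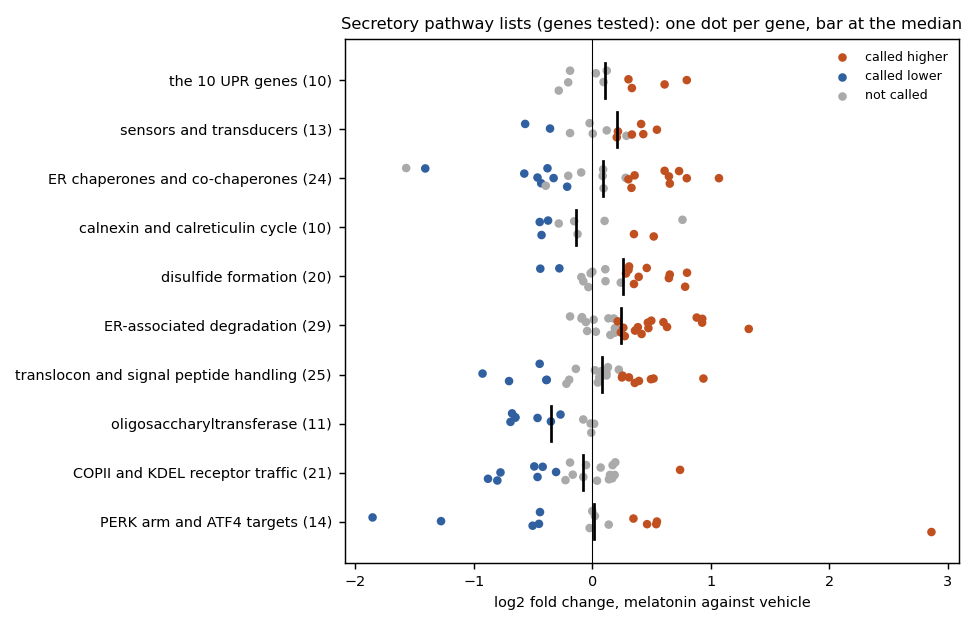
Log2 fold change (x axis) of each tested gene in the 10 UPR genes, in 8 secretory pathway lists and in the PERK arm list, coloured by call, with a bar at the median and the number tested in brackets. The ERAD bar lies at 0.24 with no gene called lower, and the oligosaccharyltransferase bar at −0.35 with no gene called higher.

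The PERK arm and the targets of ATF4 had 5 of 14 genes (35.7%) higher, 5 lower and a median of 0.01. The median was 0.14 without melatonin replicate 1, −0.06 without melatonin replicate 2, −0.09 without melatonin replicate 3 and −0.31 with the libraries holding Y-linked transcripts alone. *Atf4* (−0.50), *Atf3* (−1.28) and *Nupr1* (−1.85) were lower, as were *Eif2s1* (−0.45) and *Eif2a* (−0.44). *Eif2s1* encodes eIF2α, the substrate of PERK. *Eif2a* encodes eIF2A, a different protein that is not of this arm, although the list counts it. *Cebpb* (2.86), *Ppp1r15a* (0.54), *Eif2ak3* (0.54), *Chac1* (0.46) and *Ddit3* (0.35), the gene of CHOP, were higher. *Trib3* (0.02) and *Asns* (−0.02) were not called, and their estimates turned sign with the library left out, from −0.18 to 0.34 and from −0.14 to 0.21. *Cebpb* held 12.1, 59.6 and 189 normalised counts in vehicle and 385, 606 and 247 in melatonin, and its estimate was 1.85 without vehicle replicate 1. *Atf4* was −0.30 without melatonin replicate 1. *Atf4* and *Chac1* kept their calls in 2 of 6 fits without a sample, *Atf4* lost it with the length correction (−0.43), *Ddit3* in 4 and *Cebpb* in 5, and the list had 2 calls higher without vehicle replicate 2 or melatonin replicate 2 and 3 without vehicle replicate 3.

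Plasma cells make much BiP and XBP1, so markers of other cells were read as well. By the methods of the study, the sort kept live cells with CD45, ST2 and CD127 on their surface and left out those stained for markers of T cells, B cells (B220), NK cells, myeloid cells and granulocytes, red cells, and mast cells and basophils (FcεRIα). The summed level of the plasma and B cell markers that were listed, 8 of 12, was 3183 to 3705 normalised counts in vehicle and 680 to 1593 in melatonin, most of it *Irf4*, with *Cd79a* and *Igkc* at 3 counts or fewer in each melatonin sample and *Mzb1*, *Ms4a1* and *Pax5* among those not listed. T cell markers (6 of 9 listed) summed to 6049 to 6577 in vehicle and 2127 to 3175 in melatonin, and myeloid markers (9 of 9) to 1482 to 1776 and 366 to 886. Epithelial markers (8 of 9) summed to 964 to 2412 and 1061 to 1261. *Epcam*, called higher at 667 in vehicle and 1097 in melatonin, made up nearly all of the melatonin sum, while 5 of the 7 tested were lower and the median was −4.15, with *Scgb1a1* and *Krt8* at 3 counts or fewer in each melatonin sample. Mast cell and basophil markers (4 of 7) summed to 1688 to 1771 and 2197 to 5937, nearly all of it *Kit*, which held 5935 in melatonin replicate 1 and was called higher, while *Cpa3* and *Tpsb2* were not called. The part of these cells in the values above was not tested. In bulk samples, fewer cells of a type and less RNA per cell cannot be told apart.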

How the data were processed

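RNA of 3 vehicle and 3 melatonin samples was sequenced after cDNA synthesis with a low-input kit that does not keep the strand. The authors aligned the reads to mm39 with STAR, assigned them to GENCODE genes with the Partek E/M algorithm, which can divide a read among genes, and removed genes with few counts. The deposited values are what remained after the authors scaled each sample by its median ratio size factor, used here as a signal called normalised counts. They are not all whole reads, and between 72.0% and 73.7% of values under 60 were whole multiples of the value of a read at a tolerance of 0.01, so limma 3.58.1 in R 4.3.3 (lmFit, eBayes with a trend, treatment as the only term) was run on log2 values with a pseudocount of 1, a scale that understates changes of low genes of the 14419 genes that reached 10 in any sample, with Benjamini-Hochberg adjustment over all of them. The fit was tested on simulated data. No conclusion about the calls is drawn from that test, because the coefficient of variation of most panel genes differed between vehicle and melatonin. Names, GRCm39 positions and the length of the canonical transcript came from GENCODE M39, which named 16334 of the 16381 genes, and promoters from RefSeq. The members and lists were chosen with earlier results of these data known. Besides the 10 members, the text names in each pathway list the 2 called genes with the largest rise and the 2 with the largest fall at a mean of at least 100 normalised counts, and every called gene of the PERK arm. Other genes were named, for their known role, after their values had been seen. The 95% intervals are limma's and rest on the spread between samples, and the floor of 3 counts covers counting error only. The alternatives are given in the closing section. A gene that the rule for named genes would give is not reported here.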

Additional observations from a re-analysis of the deposited data

How the results depend on the processing

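The 10 UPR genes were refitted under 20 alternatives each: pseudocounts of 0.1 and 10, all listed genes or those with a mean of at least 100, scaling to the same total, quantile normalisation, upper quartile scaling, limma without the trend, with sample weights or as voom on estimated counts, a correction for transcript length, the replicate block, a log2 fold change of at least 1, the libraries with Y-linked transcripts alone, and each sample left out in turn. Of 200 values, 179 kept their direction and side of the threshold, 8 lost the call, 8 gained it and 5 changed sign. The 5 were all of *Herpud1*, at −0.020 with upper quartile scaling, −0.072 with the length correction, −0.057 with the libraries holding Y-linked transcripts, −0.0061 without vehicle replicate 3 and −0.031 without melatonin replicate 2 (−0.031 to 0.092 over the 6 fits without a sample), and the cause was not tested. With a log2 fold change of at least 1 required, limma called 0 of the 10 genes higher, 2 secretory pathway genes higher and 1 lower, and 866 of all genes higher and 1392 lower, by construction of that threshold. Members called lower were 3 with the libraries holding Y-linked transcripts alone, where the 1 melatonin sample is assumed to vary like the vehicle samples, and 0 to 2 with a sample left out, and members called higher were 3 to 4. Same-numbered samples did not deviate together (correlations of −0.11, 0.14 and −0.19 over 9990 genes). The highest correlation was 0.31, of vehicle replicate 1 with melatonin replicate 3. Such correlations rest on deviations from means of 3 samples and cannot exclude a pairing. With the replicate block, 4 of the 10 genes were higher and 0 lower, and 3160 of all genes were higher and 3278 lower. The median of all genes was −0.05 with upper quartile scaling and 0.03 with quantile normalisation, the same total or voom; that of the 10 genes ran from 0.06 with upper quartile scaling to 0.23 with quantile normalisation, and that of the 8 lists from 0.04 to 0.16 with the same settings. Among the lists, calls higher fell from 6 to 2 for sensors without the trend or with the replicate block and to 3 with upper quartile scaling or the length correction, from 8 to 5 for the translocon with upper quartile scaling, where lower calls went from 5 to 7, and from 5 to 2 for the PERK arm with quantile normalisation or without the trend and to 3 with the replicate block, and went from 1 to 4 for COPII and KDEL receptor traffic with the same total, quantile normalisation or voom. With the libraries holding Y-linked transcripts alone, under the same assumption on the 1 melatonin sample, lower calls went from 3 to 5 in the calnexin cycle and from 2 to 4 in disulfide formation, and the PERK arm had 3 higher and 7 lower with a median of −0.31, and the translocon 6 higher and 7 lower. With the length correction *Pdia3* went to 0.23, *Sec62* to 0.25, *Sec11c* to 0.81 and *Ddit3* to 0.60, all still called.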
